A study of Mus musculus with 12 samples.

Results

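The 4 arrays numbered 1, 1 from each treatment group, were compared with the 8 arrays numbered 2 or 3. They belong to 12 Illumina MouseWG-6 v2.0 bead arrays of the nucleus accumbens of C57BL/6J mice aged 8 to 10 weeks. The members were taken from the last digit of each sample title, and the labels do not say what the number stands for. Every array carried RNA pooled from bilateral punches of 4 mice taken 1 h after the last daily intraperitoneal injection, so the arrays are separate pools and spread is between pools. The acute schedule was 14 saline injections ending in 1 dose of 20 mg/kg cocaine. In the repeated schedule the first 7 injections were saline and the last 8 cocaine. In the withdrawal schedule 7 cocaine injections preceded 7 of saline and a closing cocaine challenge. The saline schedule was 15 injections of saline alone. Each treatment supplied 1 array to the arrays numbered 1 and 2 to the others, so a difference by number is balanced over treatment.

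The nucleus accumbens is the ventral part of the striatum and receives dopamine from the midbrain. Most of its neurons are GABAergic medium spiny neurons, which carry either D1 or D2 dopamine receptors. It borders cortex, septum and the lateral ventricle, so a needle punch can take in a varying amount of cortical glutamatergic neurons or choroid plexus, the epithelium that secretes cerebrospinal fluid. In pooled tissue, fewer cells of a type and less RNA per cell cannot be told apart.

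The number of an array came with its own set of probes. Fitted with limma and treatment as covariate, 917 of 25478 measured probes (3.6%) had a Benjamini-Hochberg adjusted p under 0.05 between the arrays numbered 1 and the others. Such probes are named called here. This contrast was picked after earlier results on these arrays had been seen, so the counts and differences are a description and carry no test. Called probes were higher in number 1 in 734 cases (2.88% of measured probes) and lower in 183 (0.718%). Measured probes are those detected on at least 3 of the 12 arrays, and 1371 of them reached that number only with the help of the arrays numbered 1. Of the 734 called higher probes 396 were of that kind, so the filter itself admitted them by their level in number 1. The 24107 probes with at least 3 detections outside number 1 held 338 called higher and 183 called lower, a condition that in turn favours probes seen on numbers 2 and 3. At an unadjusted p under 0.05 the count over all measured probes was 4380 (17.2%). The median log2 difference was 0.96 among the called higher probes and −0.81 among the called lower probes. The 4 arrays lay above all 8 others for 730 probes (2.87%) and below all 8 for 238 (0.934%). The array numbered 1 lay above both others of its treatment in each of the 4 treatments for 1571 probes (6.17%), and below both for 977 (3.83%). Counted by gene, with each gene taken at its brightest measured probe, 219 of 12732 genes were called higher (1.72%) and 91 lower (0.715%). The count of 917 depended on single arrays, being 508 without the acute, 514 without the saline and 563 without the repeated array numbered 1. With probes detected on all 12 arrays alone it was 187.

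The called probes were also read by treatment, as a description, since the fit that chose them held treatment as a covariate. Among those called higher the median difference of the array numbered 1 from the mean of the other 2 arrays of its group was 0.99 in acute, 0.92 in repeated, 0.87 in withdrawal and 0.99 in saline mice. The array numbered 1 was on the called side in all 4 treatments for 711 of the 734 higher and 182 of the 183 lower probes. The median called higher probe was 0.98 above number 2 and 0.92 above number 3 on the log2 scale. On the first principal component of the values with treatment means removed, which held 33.5% of their variance, the arrays numbered 1 scored 28.9 to 37.9. Those numbered 2 scored −27.3 to −23.2 and those numbered 3 scored −13 to −4.39. Number 1 against the others took 24.2% of the summed variance over measured probes with 1 degree of freedom, and treatment took 23.9% with 3. Over the 19247 probes detected on all 12 arrays number 1 took 18.3% and treatment 27.5%, again with 1 and 3 degrees of freedom. A term with more degrees of freedom takes a larger share by chance, so the raw shares do not rank the 2 sources.

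The clearest probe was that of Bmx, a non-receptor tyrosine kinase of the Tec family. Its log2 intensity in number 1 was 8.06 in acute, 7.93 in repeated, 7.62 in withdrawal and 8.04 in saline mice. In numbers 2 and 3 the lowest value was 5.198, the median 5.43 and the highest 5.65. The 4 arrays stood clear of all others, with a difference of 2.47 ± 0.12 (SE), or 5.54-fold, between means of 7.91 ± 0.20 (SD, n = 4) and 5.44 ± 0.17 (SD, n = 8). Olfr412, an odorant receptor gene, behaved in the same way at a lower level. It had 6.31, 6.12, 6.04 and 5.62 in the acute, repeated, withdrawal and saline arrays numbered 1, against 4.31 to 4.75 with a median of 4.44 in the others. Its difference was 1.57 ± 0.11, or 2.97-fold, again with no overlap. Milr1, an immunoglobulin-like receptor of mast cells, was detected on the 4 arrays numbered 1 and on 1 other, so its probe was measured only through number 1. It had 7.19, 6.85, 6.51 and 6.88 in the acute, repeated, withdrawal and saline arrays numbered 1, while the others lay between the floor of 3.32 and 4.02, with a median of 3.53.

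Acin1, which encodes a nuclear protein linked to RNA splicing and apoptotic chromatin condensation, showed the clearest difference in the other direction. Its log2 intensity in number 1 was 6.81 in acute, 6.61 in repeated, 6.43 in withdrawal and 6.805 in saline mice. Numbers 2 and 3 had 7.84 at the lowest, 8.00 as the median and 8.11 at the highest, so the groups did not overlap. The difference was −1.32 ± 0.07, which is 2.5-fold lower in number 1. C8b, a component of the complement membrane attack complex, had 5.54, 5.55, 5.06 and 5.62 in the acute, repeated, withdrawal and saline arrays numbered 1, against 6.57 to 6.91 in the others. Its difference was −1.29 ± 0.09. Txnrd3, a thioredoxin reductase, was detected on 1 array numbered 1 and on all 8 others. Its mean was 3.65 ± 0.32 in number 1 and 5.09 ± 0.22 in numbers 2 and 3 (SD, n = 4 and 8).

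**Figure D1:**
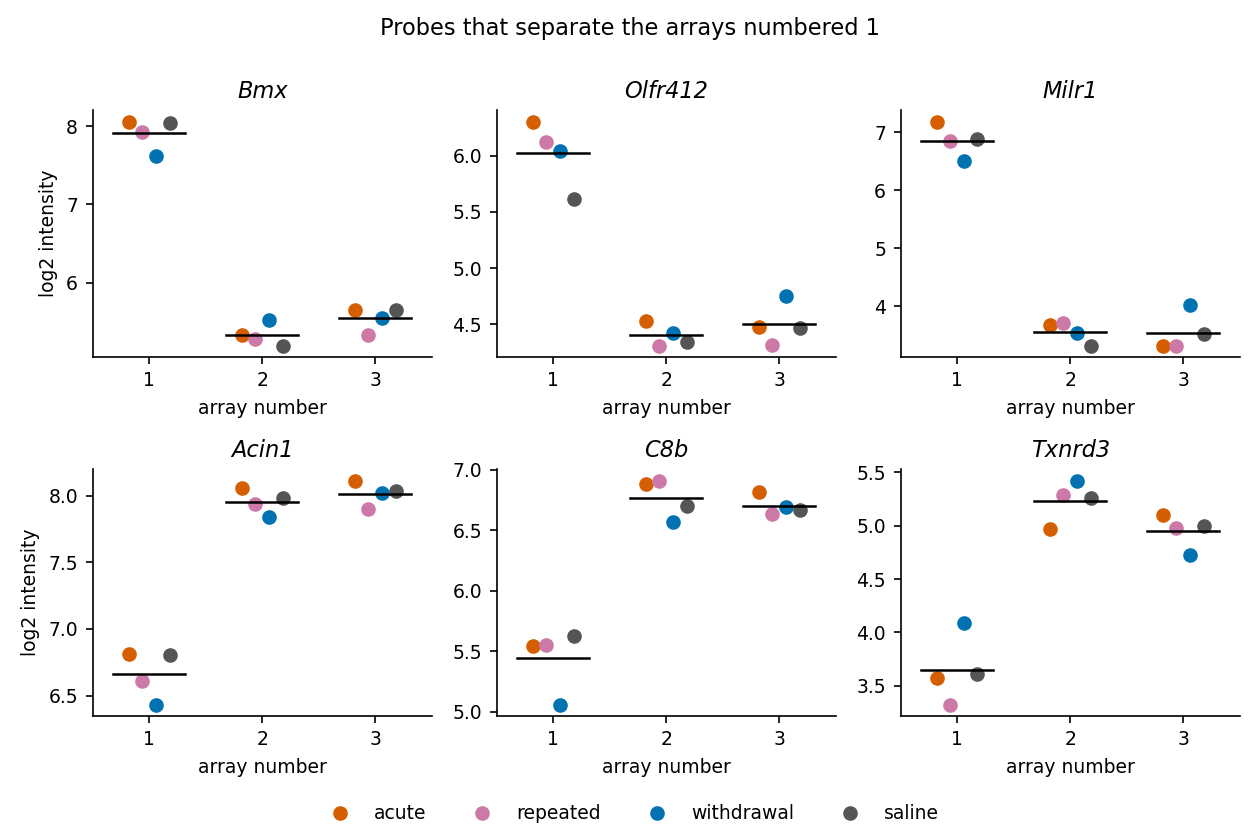
Log2 intensity (vertical axis) of 6 probes by array number (horizontal axis), with a point for each array coloured by treatment and a line at the mean of 4 arrays. Bmx, Olfr412 and Milr1 lie higher, and Acin1, C8b and Txnrd3 lower, on every array numbered 1 than on any other, while numbers 2 and 3 overlap.

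Among the other genes detected on all 12 arrays, those of smallest p had varied functions. Higher in number 1 were Ceacam20, a carcinoembryonic antigen-related adhesion molecule (difference 1.09 ± 0.10), and Nhej1, a factor of DNA end joining (1.00 ± 0.14; its 4 values of 6.14 to 6.33 lay above the 4.73 to 5.75 of the others). Pxdn, a peroxidase of the extracellular matrix, differed by 0.87 ± 0.12 and Wdr91 by 0.79 ± 0.12. The histone gene H4c9 differed by 0.71 ± 0.10, and Cnga4, a cyclic nucleotide-gated channel subunit of olfactory neurons, by 0.69 ± 0.08. Foxk1, a forkhead transcription factor, differed by 0.65 ± 0.10 and Gm1943 by 0.58 ± 0.07. Nsd1, a histone H3 lysine 36 methyltransferase, differed by 0.43 ± 0.07.

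Lower in number 1 were Gm960 (−1.09 ± 0.18) and Bcl2l11, the pro-apoptotic protein Bim (−0.83 ± 0.13). Bcl2l11 had 4.89 to 5.27 in number 1, below the 5.70 to 6.25 of the others. Ffar3, a receptor for short-chain fatty acids, differed by −0.82 ± 0.12 and Chpf2, of chondroitin synthesis, by −0.75 ± 0.11. Pramel4 differed by −0.71 ± 0.11 and Barx2, a homeobox transcription factor, by −0.67 ± 0.10. Napepld, an enzyme that forms N-acylethanolamines such as anandamide, differed by −0.55 ± 0.09. The adhesion protein Nectin2 (−0.53 ± 0.08), the cationic amino acid transporter Slc7a2 (−0.52 ± 0.08) and the DNA repair helicase Fancm (−0.46 ± 0.08) followed. Where a further probe of these genes was measured it was in several cases on the other side of 0. Slc7a2 had dim probes at 0.72 ± 0.22 and −0.12 ± 0.22, and the second probe of Nsd1 was at −0.13 ± 0.09. The second probes of Bcl2l11, Ffar3 and Cnga4 were dim, at 0.07 ± 0.23, 0.24 ± 0.24 and −0.08 ± 0.16. The further probes of Pxdn, Napepld and Nectin2 lay on the same side as the named one. Chpf2, Barx2, Gm960 and Fancm overlapped slightly between the groups.

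A further set of probes was seen on the arrays numbered 1 alone. A probe counted as detected on an array where its deposited detection p was under 0.05. There were 142 probes detected on all 4 arrays numbered 1 and on none of the 8 others, against 9 such probes for number 2 and 4 for number 3. The opposite pattern, detection on the 8 other arrays and none of the number, held for 12 probes at number 1, 12 at number 2 and 0 at number 3. With a detection p under 0.01 the same counts of probes confined to a number were 154, 1 and 2. The 142 were dim, with means in number 1 of 3.89 to 6.30 and a median of 4.51, and 141 of them were called. They entered the comparison only through the arrays numbered 1, so they had to differ, and their call says nothing more. Of the 142, 53 sat at the floor of 3.32 on all 8 others. The number of probes detected in all did not set number 1 apart, at 23071 to 23803 per array against 22189 to 23750.

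**Figure D2:**
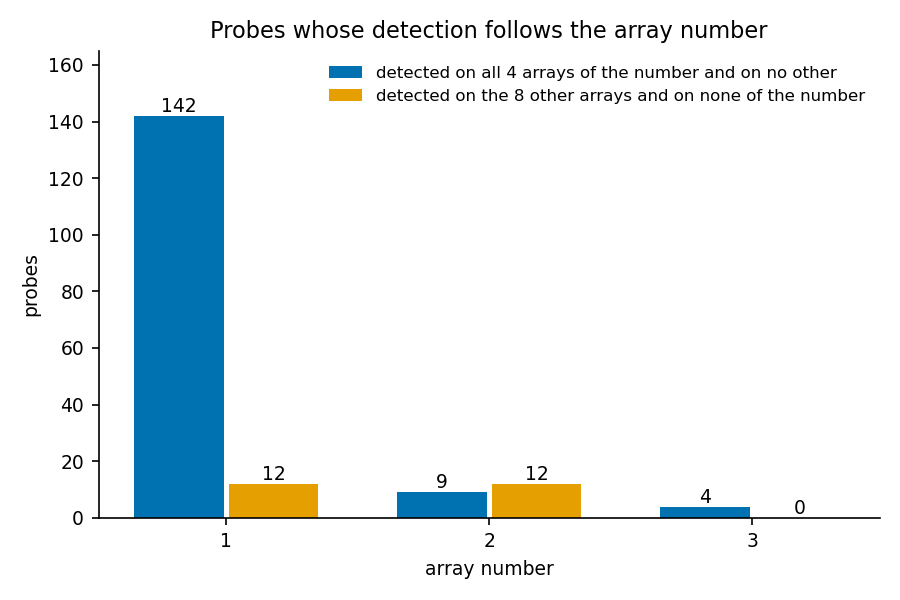
Number of probes (vertical axis, from 0) for each array number (horizontal axis). Blue bars count probes detected on the 4 arrays of that number and no other, which are 142, 9 and 4, and orange bars count probes detected on the 8 other arrays and none of that number, which are 12, 12 and 0.

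Since the level on the other arrays is unknown for these probes, their folds are lower bounds, set against the lowest detected intensity of each array. Gm13238 had 6.68, 6.33, 5.88 and 6.30 in the acute, repeated, withdrawal and saline arrays numbered 1, at least 5.4-fold above the others. Fam3b, a secreted cytokine-like protein of the pancreas, had 6.04, 5.54, 6.13 and 5.99 and was at least 4.17-fold higher. All 8 other arrays lay at the floor for Fam3b, and 7 of 8 did for Gm13238. Rfpl4b was at least 2.78-fold higher, the cell-cycle inhibitor locus Cdkn2a at least 1.82-fold and Lrrc9 at least 1.7-fold. Of the genes seen on the 8 others and not on number 1, Pgr, the progesterone receptor, was at least 1.62-fold lower in number 1. Others were dim and only partly lost in number 1, including Zfp622 (−1.23 ± 0.17), Lncbate10 (−0.81 ± 0.12) and Sarm1, an enzyme of axon degeneration (−1.04 ± 0.16). The brightest measured probe of Pcp4, a calmodulin-binding protein, had 3.59 to 4.14 in number 1 and 4.56 to 5.96 in the others.

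Among dim probes the share called changed with the condition set on detection. Of probes detected on 3 to 4 arrays 13.3% were called, or 6.03% without the 142 confined to number 1. Of the 792 with at least 3 detections outside number 1, 0.126% were called, 0 higher and 1 lower. Such probes can have at most 1 detection in number 1, so the condition itself nearly bars a higher call. Their share therefore cannot show how far the calls followed the filter. Of probes detected on 5 to 8 arrays 11.4% were called, or 5.76% with at least 3 detections outside number 1. There too the condition favours probes seen outside number 1. Of probes detected on 9 to 11 arrays 6.62% were called. Of the 19247 probes detected on all 12 arrays 1.39% were called, 182 higher and 86 lower. By brightness, 11% were called where the mean log2 intensity was under 4 and 0.374% where it was over 10. The called higher probes also differed in annotation from the measured probes as a whole. A gene symbol was listed for 60.6% of the 734, for 85.8% of the 183 lower probes and for 83.1% of all measured probes. A curated mRNA accession was listed for 40.7% of the higher and 80.9% of the lower probes, against 74.3% of all. Among probes detected on all 12 arrays the share with a curated mRNA was 50% of called higher probes, 87.2% of called lower probes and 78% of all. Of the 142 probes confined to number 1, 77 (54.2%) had a symbol.

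A second probe of the same gene seldom showed the difference of the called probe. For 348 called probes another probe of the gene was measured, and the brightest such probe is used here. The called probes had a median size of 0.85 on the log2 scale, whereas the second probes, with the sign turned to the call, had a median of −0.01. The second probe lay in the same direction in 163 cases (46.8%) and was itself called that way in 18. With both probes detected on all 12 arrays, where the filter plays no part, the medians were 0.59 and 0.02 and the direction was shared in 66 of 120 (55%). Over all 4082 genes with a pair of probes detected on all 12 arrays, the 2 brightest shared a direction in 59%. Acin1 is an example. Its other probes differed by −0.01 ± 0.09 and 0.35 ± 0.16, beside −1.32 ± 0.07 at the called one.

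**Figure D3:**
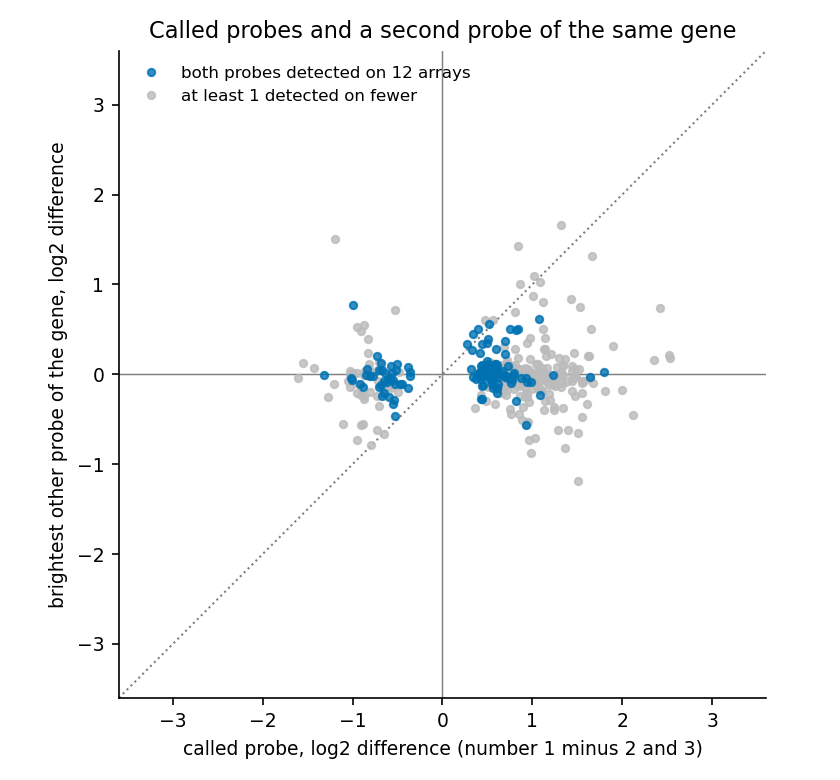
Log2 difference, number 1 minus numbers 2 and 3, of 348 called probes (horizontal axis) against the brightest other measured probe of the same gene (vertical axis), with a dotted line of equality. Blue points have both probes detected on 12 arrays. The second probes lie on both sides of 0, with a median of −0.01 once the sign is turned to that of the call.

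The genes seen on number 1 alone gave the same picture. Another probe of the gene was measured for 39 of those probes, in 33 cases on all 12 arrays. It was higher in number 1 in 14 cases and lower in 25, with a median of −0.05 and a range from −1.19 to 1.12. Robo1, an axon guidance receptor, Trim2, a ubiquitin ligase of neurons, and P2ry12, a purinergic receptor of microglia, are examples picked with their values known. Robo1 was at least 1.93-fold higher at the probe confined to number 1, while its bright probe differed by 0.24 ± 0.08 on the log2 scale. Trim2 was at least 1.64-fold higher at the confined probe and differed by −0.05 ± 0.10 at the other. P2ry12 was at least 1.39-fold higher at the confined probe and differed by −0.03 ± 0.15 at the other.

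A few genes differed at several probes. In all, 14 genes had 2 or more called higher probes and 1 gene, Cpeb4, had 2 called lower, out of 5408 genes with more than 1 measured probe. They were picked by that count, after the values were seen. Counting only probes with at least 3 detections outside number 1, 8 genes had 2 or more called higher, and Boc, Exoc4, Ifnz, Myof, Psd3 and Swap70 dropped out. Ddx6, an RNA helicase of processing bodies that holds mRNAs in a translationally silent state, was called at 4 of 5 probes. Its brightest probe had 10.71, 10.06, 10.46 and 10.7 in the acute, repeated, withdrawal and saline arrays numbered 1, against 9.86 to 10.15 with a median of 9.97 in the others. The repeated array numbered 1 lay among the others there and the remaining 3 above them, with a difference of 0.50 ± 0.10. Its other called probes differed by 0.75 ± 0.13, 0.84 ± 0.13 and 1.12 ± 0.18, and the uncalled probe by 0.15 ± 0.12.

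Gnal encodes the G protein alpha subunit that couples the D1 dopamine receptor to adenylyl cyclase in the striatum. Its brightest probe had 10.8, 10.87, 11.27 and 10.81 in the acute, repeated, withdrawal and saline arrays numbered 1, against 10.05 to 10.67 with a median of 10.49. There was no overlap, and the difference was 0.50 ± 0.10. A second probe differed by 0.40 ± 0.08, a dim probe by 1.65 ± 0.24 and an uncalled probe by 0.27 ± 0.11. Rasgef1a, a Ras-family exchange factor, was called at both of its probes (0.44 ± 0.10 and 0.34 ± 0.06). The brighter had 11.28, 11.27, 11.42 and 11.11 in the acute, repeated, withdrawal and saline arrays numbered 1, above the 10.49 to 10.96 of the others.

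Meg3, a maternally expressed long non-coding RNA of neurons, lies outside that count and was added by name, with its values known. It differed alike at its 2 probes, by 0.52 ± 0.09 (called) and 0.56 ± 0.13 (not called). On every array numbered 1 both probes exceeded all 8 others. Ccnd2, a D-type cyclin, differed by 0.28 ± 0.06 and 0.33 ± 0.07 at its brighter probes and by 0.09 ± 0.21 and 0.08 ± 0.24 at its others. Lsm14b, a further RNA-binding protein of the Lsm family, split by probe. Its brightest probe differed by −0.05 ± 0.07, and its called probes by 0.87 ± 0.14 and 0.93 ± 0.18. Exoc4, Psd3 and Swap70 had a brightest probe at −0.09 ± 0.11, −0.09 ± 0.09 and −0.16 ± 0.07. Exoc4 had a dimmer called probe at 0.94 ± 0.16, detected on all 12 arrays. A further probe of Exoc4 and one of Swap70 were confined to number 1, at least 1.81-fold and 1.34-fold higher there. Syn3, a synapsin of presynaptic vesicles, was higher in number 1 at all 6 of its probes, by 0.23 to 1.21, with 2 called. Cpeb4, a translational regulator, differed by −0.74 ± 0.12 and −0.86 ± 0.16 at its dim probes and by 0.03 ± 0.13 at the bright one.

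**Figure D4:**
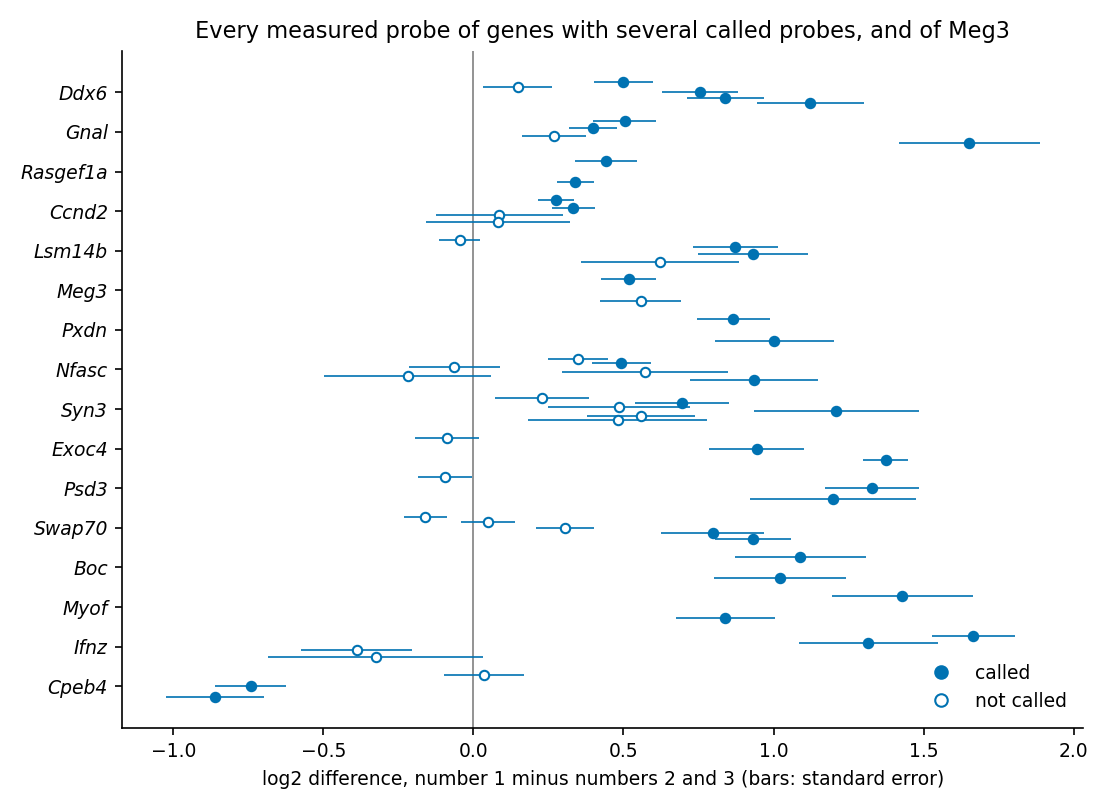
Log2 difference, number 1 minus numbers 2 and 3 (horizontal axis, with standard errors), of every measured probe of 15 genes with 2 or more called probes in 1 direction and of Meg3, added by name. Each gene has its own row with brighter probes above. Filled points are called, and those of Exoc4, Psd3, Swap70, Boc, Myof and Ifnz include probes measured only through number 1. All probes of Ddx6, Gnal, Rasgef1a and Meg3 lie above 0, whereas Lsm14b, Exoc4, Psd3 and Swap70 have a probe below 0.

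Markers of the medium spiny neurons, the main neurons of the tissue, had overlapping summed levels, 17.35 to 17.54 in number 1 and 17.24 to 17.49 in the others. Of 33 measured markers shared by these neurons 20 were higher and 13 lower in number 1, with a median of 0.04, beside 43.4% higher and a median of −0.02 over all 12732 genes. The median of the markers turned sign without the arrays numbered 2. The next genes mark medium spiny neurons of the striatum and do not set the accumbens apart from its dorsal part. Drd1, the D1 dopamine receptor, had 12.08 to 12.42 in number 1 and 11.75 to 12.38 in the others. Drd2, the D2 receptor, had 9.92 to 10.17 and 9.83 to 10.23. Penk, the enkephalin precursor of D2 neurons, had 11.57 to 11.75 in number 1, within or just above the 11.23 to 11.67 of the others (0.22 ± 0.10). Of the 33, 2 were called higher, Gnal and Dlx6, and 0 lower, beside 1.72% and 0.715% over all genes. Dlx6, a homeobox gene of striatal GABAergic neurons, had 8.57, 8.39, 8.22 and 8.38 in the acute, repeated, withdrawal and saline arrays numbered 1, all above the 7.48 to 8.08 of the others (0.63 ± 0.10). Dlx5, its partner gene, had a dim probe with the opposite sign (−0.69 ± 0.20, not called).

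Single genes of other lists were called, beside 1.72% higher and 0.715% lower over all genes. Lhx8, a homeobox gene of cholinergic interneurons, had 7.54, 7.86, 7.51 and 7.56 in the acute, repeated, withdrawal and saline arrays numbered 1 and 6.46 to 7.33 in the others. Its difference was 0.78 ± 0.16 with no overlap, while the cholinergic markers Chat and Slc18a3 differed by 0.04 and 0.01. Gda, the enzyme guanine deaminase, differed by 0.48 ± 0.11, again without overlap (6.885 to 7.60 against 6.40 to 6.84). Of 30 activity-induced effectors, Trib1 was called higher (1.14 ± 0.18) at a probe measured only through number 1, and Ifrd1 (−1.10 ± 0.23) and Sik1, a salt-inducible kinase (−1.02 ± 0.22), were called lower.

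Several markers of cortical glutamatergic neurons varied widely between arrays, and most of the list was lower in number 1. Of 27 measured markers 21 were lower in number 1, beside 7203 of 12732 genes in all. The median difference of the markers was −0.27. None were called (0), beside 1.72% called higher and 0.715% lower over all genes. Slc17a7, the vesicular glutamate transporter of cortical neurons, had 8.82, 4.08, 7.88 and 6.83 in the acute, repeated, withdrawal and saline arrays numbered 1. In numbers 2 and 3 it ran from 4.82 to 10.23 with a median of 9.49. The ranges overlapped widely, and the difference of −1.57 ± 1.22 was not called. The transcription factor Tbr1 and the zinc transporter Slc30a3 are further members of the list, picked with their values known. Tbr1 had 6.92, 3.32, 5.94 and 4.20 in the acute, repeated, withdrawal and saline arrays numbered 1 and 3.32 to 8.35 in the others. Slc30a3 had 7.70, 3.99, 7.23 and 5.16, against 3.78 to 9.63. Slc17a7 was at 7.85 to 10.23 on the 4 arrays numbered 2 and at 9.68 and 9.44 on the acute and repeated arrays numbered 3. The withdrawal and saline arrays numbered 3, at 6.23 and 4.82, lay within the range of number 1.

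**Figure D5:**
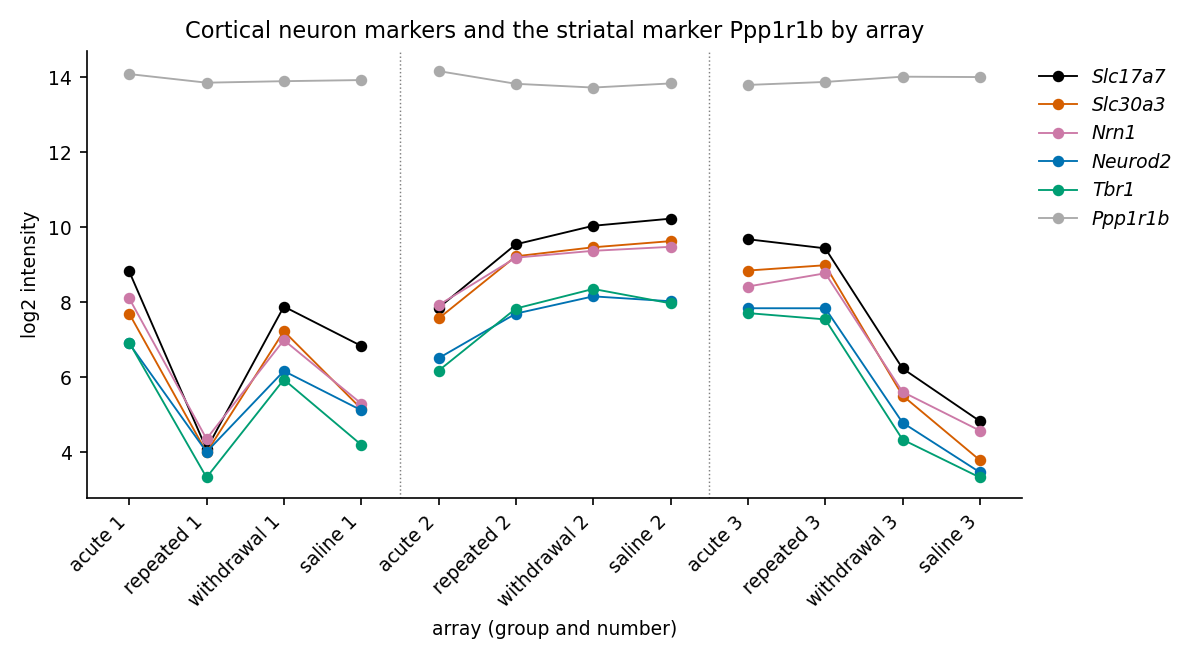
Log2 intensity (vertical axis) of 5 cortical neuron markers and of Ppp1r1b, the striatal protein DARPP-32, on each array (horizontal axis, by number and treatment). The 5 cortical markers, picked by name from 27 measured, move together, with Slc17a7 between 4.08 and 10.23. Ppp1r1b stays near the top on all arrays. The summed level of the whole list varied less, from 14.05 to 14.45 in number 1 and from 14.19 to 14.56 in the others.

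Markers of other neighbouring tissue leaned either way, beside 43.4% of all genes higher and 7203 of 12732 lower in number 1. Over all genes 1.72% were called higher and 0.715% lower, so 0 called in a short list says little. Of 14 thalamic markers 12 were lower in number 1 (median −0.17) and 0 called, and the summed level of the list was 12.19 to 12.33 in number 1 against 12.19 to 12.58. Slc17a6, the vesicular glutamate transporter of thalamic and other subcortical neurons, had 6.32 to 8.05 and 6.06 to 9.28. Of 15 septal markers 10 were lower (median −0.26) and 0 called. Of 11 markers of piriform cortex, endopiriform nucleus and claustrum 8 were higher (median 0.09), and of 14 hypothalamic and preoptic markers 9 were higher (median 0.07), with 0 called in each list. The hypothalamic median turned sign without the repeated array numbered 1. Markers of the olfactory bulb, migratory stream and subependymal zone were lower in 11 of 16 (median −0.10), and meningeal markers in 15 of 19 (median −0.08). The olfactory median turned sign without the acute array numbered 1 and with probes detected on all 12 arrays. Striatal interneuron markers were higher in 13 of 23 (median 0.03), and this median turned sign in 5 of 30 processing settings. Within that list, interneuron peptides that cortex also expresses had wide ranges. Vip had 5.66 to 7.16 in number 1 and 6.29 to 8.57 in the others, and Cort, cortistatin, had 5.16 to 7.08 and 5.18 to 8.51. Summed, the cortical list ran from 14.05 to 14.45 in number 1 and from 14.19 to 14.56 in the others. Its part in the called differences was not tested.

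Choroid plexus transcripts differed between individual pools of the same number. Their summed level ran from 11.77 to 12.14 in number 1 and from 11.74 to 12.36 in the others. Ttr, transthyretin, which the choroid plexus makes in large amounts, had 3.32, 9.74, 7.65 and 9.15 in the acute, repeated, withdrawal and saline arrays numbered 1. The others ran from 5.17 to 10.73 with a median of 7.61, and the difference was −0.15 ± 1.10. Of 22 choroid plexus markers 7 were higher and 15 lower in number 1, beside 43.4% of all genes higher. Their median was −0.21. Lbp alone was called, at a probe measured only through number 1, beside 1.72% called higher over all genes. Of 14 blood cell markers 8 were higher, again beside 43.4% of all genes. Their median was 0.18, a sign that turned with a floor of 32 and without the withdrawal array numbered 1. The haemoglobin gene Hba-a1 had 12.41 to 13.06 in number 1 and 12.13 to 12.86 in the others.

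Microglial markers were more often higher than lower in number 1. Of 25 measured 20 were higher and 5 lower, beside 43.4% of all genes higher. Their median was 0.09, and 0 were called, beside 1.72% called higher and 0.715% lower over all genes. Mpeg1, a perforin-like protein of macrophages, had 8.78, 8.93, 8.82 and 9.07 in the acute, repeated, withdrawal and saline arrays numbered 1, against 8.31 to 8.86 in the others (0.30 ± 0.08). Cx3cr1, the fractalkine receptor, had 9.001 to 9.215 and 8.71 to 9.10 (0.24 ± 0.08). Both overlapped between the groups. Among the 5 lower was P2ry12, at −0.03 ± 0.15 at its bright probe. Summed, the list ran from 13.53 to 13.76 in number 1 and from 13.49 to 13.70 in the others. Astrocyte, myelin and precursor lists had medians of −0.01, 0.01 and −0.01. Mbp, myelin basic protein, had 14.60 to 14.66 in number 1 and 14.54 to 14.76 in the others.

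Lists of general cell functions had medians between −0.08 and 0.07, beside −0.02 over all genes. Cytosolic ribosomal protein genes had a median of 0.00 over 50 genes, proteasome subunits 0.02 over 30, oxidative phosphorylation subunits −0.03 over 69 and histone genes 0.03 over 31. Synaptic vesicle genes stood at −0.08 over 36 and glutamate receptor and scaffold genes at 0.07 over 32. The labels give no sex. Eif2s3y, a Y-linked gene, had 9.77 to 10.05 in number 1 and 9.75 to 10.05 in the others. Xist, the X inactivation transcript, was near the floor, at 3.94, 3.90 and 4.23 on the acute, repeated and withdrawal arrays numbered 1 and at 3.32 on the remaining 9, so its probe was measured only through number 1. Ehmt2, the histone methyltransferase G9a named in the series title, had 10.08 to 10.34 in number 1 and 10.13 to 10.35 in the others (−0.02 ± 0.08).

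The cocaine comparisons do not enter the number contrast and can be tested beside it. Because numbers are balanced over treatments, a number term leaves each cocaine difference as it is and changes only its error. The median standard error over measured probes was 0.158 with number 1 as a covariate and 0.17 without. By limma 0 probes (0%) had an adjusted p under 0.05 in acute, repeated or withdrawal minus saline, with or without the term. At an unadjusted p under 0.05 by limma the covariate gave 1435 probes (5.63%) for acute, 2695 (10.6%) for repeated and 2352 (9.23%) for withdrawal minus saline. Without it there were 1132 (4.44%), 2264 (8.89%) and 1990 (7.81%). The acute shares were near what chance alone passes at 0.05.

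The response to cocaine was also set apart by number. The interaction, the cocaine minus saline difference in number 1 less that in numbers 2 and 3, was past the adjusted threshold for 0 probes (0%) by limma, and 955 (3.75%) had an unadjusted p under 0.05. Only 4 residual degrees of freedom support it. Fos, an immediate early transcription factor, had a cocaine difference of 1.10 in number 1, 0.11 in number 2 and 1.87 in number 3, each as the mean of 3 cocaine arrays minus 1 saline array. Its interaction was 0.11 ± 0.67 (limma adjusted p = 0.9996). Arc, a synaptic immediate early gene, gave 1.03, 0.18 and 1.15, and Npas4, a neuronal activity-dependent transcription factor, 1.38, 0.27 and 0.85. Egr2 gave 0.80, 0.95 and 1.66, and Hspa1a, an inducible heat shock protein, 1.17, 1.05 and 2.26. Rbm3, a cold-inducible RNA-binding protein, gave 0.76, 1.64 and 0.83, and the clock gene Per2 gave 0.30, 0.32 and 0.35. All 7 were positive in each number, but they were picked with earlier results of these data known, so their sign is a description. Ehmt2 gave 0.02, 0.01 and −0.08. The adjusted p of each of these interactions was 0.9996 by limma.

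Levels of the immediate early genes overlapped between the numbers. Of 16 immediate early transcription factors 13 were lower in number 1, beside 7203 of 12732 genes in all. The list had a median of −0.16 and 0 called, beside 1.72% called higher and 0.715% lower over all genes. Fos had 9.34, 9.77, 9.70 and 8.51 in the acute, repeated, withdrawal and saline arrays numbered 1, against 8.11 to 10.14 with a median of 9.64 in the others. Npas4 had 6.55 to 8.04 and 7.25 to 8.19. In both, the saline array was the lowest of number 1, and the ranges overlapped.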

How the data were processed

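The 12 arrays were grouped by the number that ends each title. The authors subtracted background and quantile normalized the arrays in BeadStudio, per the series text. The sources used here do not give its version. The deposited intensity values are linear. The table presented as raw equalled the other plus a constant of 60.7 on every array (largest deviation 0.00586) and gives a detection p-value, per the file headers. Because quantile normalization came first, differences in total signal between arrays could not be examined.

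The subtracted intensity was floored at 10 and taken to log2. Probes detected (p under 0.05) on at least 3 of 12 arrays were kept, 25478 of 45281, and 6.34% of kept values lay at the floor. Genes were named from the platform annotation, which lists 1 symbol at 34885 probes, more than 1 at 18 and no symbol at 10378. Fits used limma 3.58.1 in R 4.3.3 with treatment and number 1 as terms, 7 residual and 2.36 prior degrees of freedom, two-sided, adjusted over all kept probes at 0.05. The script was tested on simulated data. The number of arrays limits the precision.

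The members and 39 gene lists were chosen with earlier results of these data known. Named by rule were the 12 genes per direction of smallest p detected on all arrays, 6 per direction of those on fewer, up to 4 per list in its direction and 2 against it, and a fixed set of tissue and activity genes.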

Additional observations from a re-analysis of the deposited data

Results flagged for a closer look

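In 190 groups of arrays, 11 had 1 array far from the rest by Dixon's criterion, which chance passes about 1 time in 20. Among the arrays numbered 1, the saline array, the only one without cocaine, had the lowest Arc (8.83, against 9.84 to 9.91 in the other 3). The withdrawal array had the lowest C8b (5.06, against 5.54 to 5.62) and the highest summed level of shared medium spiny neuron markers (17.54, against 17.35 to 17.38). The repeated array had the highest summed level of endoplasmic reticulum chaperones (14.76, against 14.68 in each of the others).

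Among numbers 2 and 3, the saline array numbered 3 was lowest for Fos (8.11, against 9.45 to 10.14) and Arc (8.73, against 9.59 to 10.22). The acute array numbered 2 was highest in summed ependymal markers (11.76, against 11.23 to 11.45). The repeated array numbered 2 was highest in endoplasmic reticulum chaperones (14.79, against 14.65 to 14.71) and lowest for Ffar3 (8.32, against 8.69 to 8.94). The saline array numbered 2 was highest in oxidative phosphorylation subunits (18.68, against 18.53 to 18.60), and the withdrawal array numbered 3 in Eif2s3y (10.05, against 9.75 to 9.87).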

How the results depend on the processing

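The count of called probes between the arrays numbered 1 and the others, 917, became 187 with probes detected on all 12 arrays, 323 with a floor of 1, 275 with a floor of 32, 262 with 1 probe per gene and 1391 with array weights. The share called higher was 80%, but 69.5% with probes detected on all 12 arrays and 65.3% with a floor of 1. Leaving out 1 array gave 508 to 917, with 508, 514 and 563 without the acute, saline or repeated array numbered 1. It was 411 without all arrays numbered 2 and 476 without all numbered 3. Without the acute, repeated, withdrawal or saline arrays it was 577, 456, 525 and 505. Fewer samples or probes entered several of these fits, and otherwise the cause was not tested. The remaining settings gave counts within 1.5 times 917. With the replicate block, a term for each of the 3 numbers, it was 1013. Deviations from the treatment means correlated across probes at 0.386 to 0.468 between arrays numbered 1. The correlations were 0.124 to 0.344 between those numbered 2 and 0.0255 to 0.261 between those numbered 3. Over probes detected on all 12 arrays those of number 3 ran from −0.102 to 0.29, so its arrays paired only weakly. By limma the cocaine contrasts had 0 called probes with the block. Leaving out 1 array gave 0 to 1: acute had 1 without the repeated array numbered 2, and repeated and withdrawal had 1 each without the repeated array numbered 3. Unsubtracted intensity gave 1 for acute and 1 for repeated. The interaction count was 0 throughout, also with a floor of 32 and probes with no residual spread left out, a setting chosen after seeing the data. For the 37 named called genes, 981 of 1093 values stayed past the threshold, 112 did not and 0 changed sign. The medians of the cortical, thalamic, septal, microglial and immediate early lists kept their sign in all 30 settings. No slide or scan is given in the sources used here, so a slide block was not run. Dim probes near the floor limit what these arrays can measure.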
